A study of Homo sapiens with 4 samples.

Results

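Broad unmethylated valleys are stretches of the genome, several kilobases long, in which nearly every CpG dinucleotide lacks DNA methylation. Here the autosomes were divided into 1 kb windows. A window passed if at least 10 of its CpGs were listed in all 4 libraries and its methylation level in the non-differentiated library was under 10%. Directly neighbouring passing windows were joined, and runs of at least 3 windows were kept as valleys. Of 864535 windows with enough CpGs, 14647 (1.69%) passed. They formed 10959 runs, of which 647 were valleys and 10312 were shorter. The valleys held 2190 windows, or 15.0% of all passing windows, and 64659 CpGs. The values of the non-differentiated library chose them, so their low level in that library is a description.

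The 4 libraries came from HUDEP-2, an immortalised human erythroid precursor line that, per the labels, normally makes adult haemoglobin. One library was from untreated, non-differentiated cells. The others were from differentiated cells that had received DMSO alone, an inhibitor of DNMT1 or one of EED. Compounds were added in 0.1% DMSO from expansion through 4 days of growth and 2 days of maturation. Cells of all groups were grown with doxycycline, and the labels used here give neither doses nor names of the inhibitors. The measurement was whole-genome bisulfite sequencing, in which unmethylated cytosine is read as T. Each library listed 24689329 to 24971588 CpGs with at least 10 reads each, at a mean of 27.2 to 29.7 reads. Each group had 1 library, so no comparison has a replicate check. Intervals are 95% Wilson intervals that cover counting error at most, with every CpG call taken as independent. Neighbouring CpGs share reads and the reads carry no molecular identifiers, so the intervals can be too narrow even for that. The non-differentiated library differs from the others in treatment as well as in differentiation, so these cannot be told apart. Methylation tables hold no expression values, so the erythroid identity of the cells was not tested here.

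Most CpGs of a mammalian genome are methylated, and DNMT1 copies the methylation of the parent strand to the new strand when DNA is replicated. Dense clusters of CpGs at gene starts are usually free of methylation. The broadest of these clusters, often called DNA methylation valleys, are known for holding genes of transcription factors that direct development, which Polycomb complexes keep silent where they are not used. EED is the subunit of Polycomb repressive complex 2 that binds trimethylated lysine 27 of histone H3 and stimulates the methyltransferase.

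Promoters of a developmental and of a ubiquitous gene show what the valleys look like in sequence. A further stretch lies just inside a border with a sharp step. All are given on hg38, 5′ to 3′, in lower case with each CG in capitals. The promoters are the 250 bases before the main transcript start on the gene's own strand, and the stretch at GSK3B is 200 bases of the plus strand.
FOXB2 promoter, chr9:77019405-77019654, plus strand: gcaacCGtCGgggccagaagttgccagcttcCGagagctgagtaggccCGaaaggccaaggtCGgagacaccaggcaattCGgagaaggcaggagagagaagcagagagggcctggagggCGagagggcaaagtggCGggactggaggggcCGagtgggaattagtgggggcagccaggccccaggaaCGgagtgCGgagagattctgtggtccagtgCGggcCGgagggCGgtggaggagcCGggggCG
HAND1 promoter, chr5:154478228-154478477, minus strand: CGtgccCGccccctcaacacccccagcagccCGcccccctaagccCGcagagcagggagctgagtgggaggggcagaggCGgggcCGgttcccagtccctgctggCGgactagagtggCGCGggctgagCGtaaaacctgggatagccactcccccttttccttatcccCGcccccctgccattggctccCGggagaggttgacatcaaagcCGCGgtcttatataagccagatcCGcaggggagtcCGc
PTMA promoter, chr2:231708275-231708524, plus strand: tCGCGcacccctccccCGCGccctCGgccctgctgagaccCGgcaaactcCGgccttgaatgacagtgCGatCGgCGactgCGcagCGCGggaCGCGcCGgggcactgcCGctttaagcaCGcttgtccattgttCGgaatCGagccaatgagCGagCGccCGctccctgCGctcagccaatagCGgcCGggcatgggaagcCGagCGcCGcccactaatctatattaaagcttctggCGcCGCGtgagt
GSK3B inside the border, chr3:120095801-120096000, plus strand: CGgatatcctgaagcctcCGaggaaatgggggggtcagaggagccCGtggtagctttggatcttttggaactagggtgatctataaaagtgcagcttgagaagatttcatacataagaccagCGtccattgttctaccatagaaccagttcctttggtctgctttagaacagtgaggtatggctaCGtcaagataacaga

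PTMA encodes prothymosin alpha, an abundant nuclear protein. Its promoter had 32 CpGs, of which 24 were listed in all libraries. Their level was 0.958% in non-differentiated cells, 0% in DMSO, 0.962% under the DNMT1 inhibitor and 0% under the EED inhibitor, over 385 to 522 reads. The promoter of FOXB2, a forkhead transcription factor gene, had 16 CpGs, of which 10 were listed. They stood at 19.3% in non-differentiated cells, 7.32% in DMSO, 7.69% under the DNMT1 inhibitor and 23.6% under the EED inhibitor, over 109 to 161 reads. A gene start inside a valley can thus carry some methylation. At the promoter of HAND1, a heart and placenta factor gene, none of the 16 CpGs had 10 reads in every library, so its level was not measurable although its valley is among the longest.

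The sharpest step among the borders compared was that of the valley holding the start of GSK3B, a kinase of glycogen and Wnt signalling. Just inside this border, all 5 CpGs of the stretch shown were at 0% in each library. The first 200 bases beyond the border hold no CpG. As the border is a line of the 1 kb grid, the stretch does not show where low methylation ends. This step is the extreme of the 764 borders compared, whose median step in DMSO was 42.2 points. At 804 valley ends the next window had at least 10 listed CpGs, so not every measured border was compared.

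Valleys were short for their name. Of the 647, 479 spanned 3 kb, 107 spanned 4 kb, 48 spanned 5 kb, 9 spanned 6 kb, 3 spanned 7 kb and 1 spanned 10 kb. Only 61 (9.43%) reached 5 kb. The read minimum bears on the length of the valleys. In valley windows, 52.6% of the CpGs in the reference were listed in all 4 libraries, against 88.1% in all windows with at least 10 listed CpGs. Of the 1294 valley ends, 804 (62.1%) met a window at 10% or more, whose median level was 44.7% in the non-differentiated library. Another 381 ends (29.4%) met a window with under 10 CpGs in the reference, and 82 of those windows were under 10%. The remaining 109 ends (8.42%) met a CpG-rich window with too few listed CpGs, and 46 of those were under 10%, so low methylation can reach beyond the runs.

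Valley sequence was rich in GC and CpG. The median valley window had 56.3% GC and 53 reference CpGs, and its observed CpG number was 0.702 of that expected from base composition. The 2 kb edges on each side had a median of 43.7% GC, 14 CpGs and 0.299 of the expected number, close to the 0.301 of all windows with at least 10 listed CpGs. Windows of the shorter runs had 57.5% GC and 0.699 of the expected CpGs, so these medians hardly separate long runs from short ones.

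Gene starts lay in most valleys. In 502 (77.6%), the main transcript start of at least 1 protein-coding gene lay inside, for 613 genes in all, or 3.21% of the 19111 autosomal protein-coding genes. A further 51 held another start of a protein-coding gene, 33 a start of a non-coding gene, 31 lay inside a gene body with no start, and 30 touched none. Among 401 valleys with 1 such gene, the run extended a median of 1968 bp downstream of the start and 1307 bp upstream, and the downstream arm was the longer in 265 (66.1%).

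Families of genes were unevenly represented. Replication-dependent histone genes, which supply histones during DNA synthesis and sit in clusters, had 35 of 69 starts (50.7%) in a valley. Because these starts are close together, the 35 genes shared 16 valleys. Genes of blood transcription factors had 11 of 36 (30.6%), among them GATA2, RUNX1, GFI1, GFI1B, LMO2, IKZF1 and MYB. A list of ubiquitous genes, such as PTMA and HNRNPA1, had 8 of 34 (23.5%). Developmental transcription factor genes had 33 of 263 (12.5%), and ribosomal protein genes 8 of 73 (11.0%). Of 95 signalling genes, 5 (5.26%) had their start in a valley, as did 2 of 35 Polycomb and DNA methylation genes, JARID2 and EED itself. No globin gene did. Of the 10, 6 had under 10 listed CpGs around their start, 2 lay in a run of 1 or 2 windows and 2 in a window at 10% or more. These lists were drawn up with earlier results of the data known and are given as counts.

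The other developmental transcription factor starts fell in shorter runs for 63 genes, in windows at 10% or more for 112 and in windows with under 10 listed CpGs, which could not be placed, for 55. Of all 19111 protein-coding genes, 5791 started in shorter runs, 7060 in windows at 10% or more and 5647 in windows with under 10 listed CpGs. Of 39 HOX genes, which set position along the body axis, 1, HOXD13, started in a valley (2.56%), a share near the 3.21% of all protein-coding genes. A run of 1 or 2 windows held 11, a window at 10% or more held 23, and 4 had too few CpGs. Developmental transcription factors were the nearest gene of 46 of the 145 valleys (31.7%) without a main protein-coding start, while over all valleys 79 (12.2%) held one or had one nearest.

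**Figure D1:**
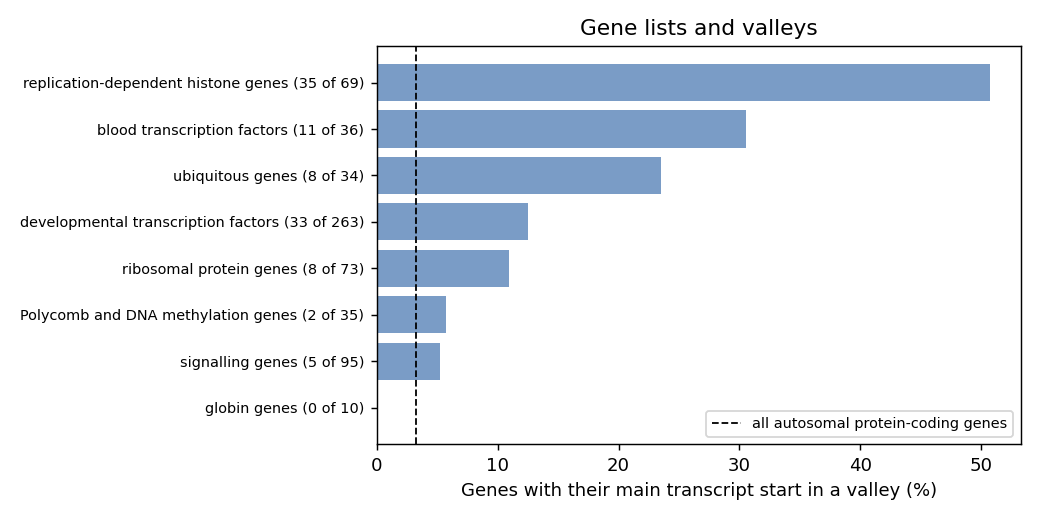
Bars give the percent of genes in each list whose main transcript start lies in a valley, with the counts beside the names, and the dashed line gives all autosomal protein-coding genes (3.21%). Replication-dependent histone genes have the largest share (50.7%), developmental transcription factor genes 12.5% and globin genes 0%.

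Inside the valleys, levels were low in every library and lowest with the DNMT1 inhibitor. Pooled over all valley CpGs, the level was 2.56% (2.54 to 2.59) in non-differentiated cells, 2.55% (2.52 to 2.57) in DMSO, 0.498% (0.487 to 0.509) under the DNMT1 inhibitor and 2.62% (2.60 to 2.65) under the EED inhibitor. The median valley stood at 2.20%, 2.20%, 0.321% and 2.16% in that order. The highest valley was at 9.01% in non-differentiated cells, 10.7% in DMSO, 3.21% under the DNMT1 inhibitor and 11.6% under the EED inhibitor. The distributions of the 3 libraries without DNMT1 inhibitor overlap over nearly their whole range.

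**Figure D2:**
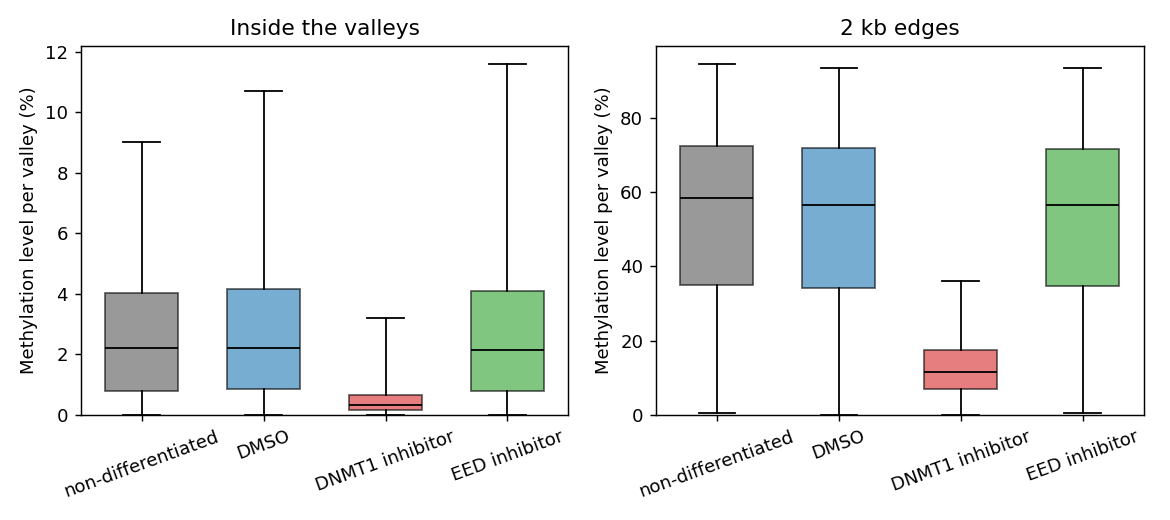
Methylation level per valley in percent, inside (left) and in the 2 kb edges (right), for each library over the 647 valleys; boxes span the quartiles with the median as a line, and whiskers reach the lowest and highest valley. Medians inside are near 2.2% in all libraries but that with the DNMT1 inhibitor (0.321%), and the median at the edges is 56.4% in DMSO and 11.4% with the DNMT1 inhibitor.

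A minority of CpGs carried the residual methylation. In each of the non-differentiated, DMSO and EED inhibitor libraries, 80.7% of valley CpGs had no methylated read, against 91.9% with the DNMT1 inhibitor. CpGs at 20% or more numbered 2230 (3.45%) in non-differentiated cells, 2188 (3.38%) in DMSO, 145 (0.224%) under the DNMT1 inhibitor and 2644 (4.09%) under the EED inhibitor. They held 55.1%, 56.9%, 10.6% and 62.2% of the methylated reads in that order. Methylation was also uneven along the valley, at 3.15% in the outermost windows and 1.71% in the inner ones in DMSO.

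The edges were methylated in every library, and least with the DNMT1 inhibitor. Pooled over the 2 kb on both sides, the level was 52.6% in non-differentiated cells, 51.7% in DMSO, 12.8% under the DNMT1 inhibitor and 51.8% under the EED inhibitor. In DMSO the level rose over about 1 kb, from 7.68% in the last 200 bp inside to 23.4% in the first 200 bp outside, 60.7% at 800 to 1000 bp and 66.0% at 2800 to 3000 bp. The EED inhibitor library lay between 0.510 points below and 0.717 points above DMSO in every 200 bp step of the profile. Position of the border in 1 kb steps follows the grid, not the true end of a valley, so part of the slope is set by the grid.

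**Figure D3:**
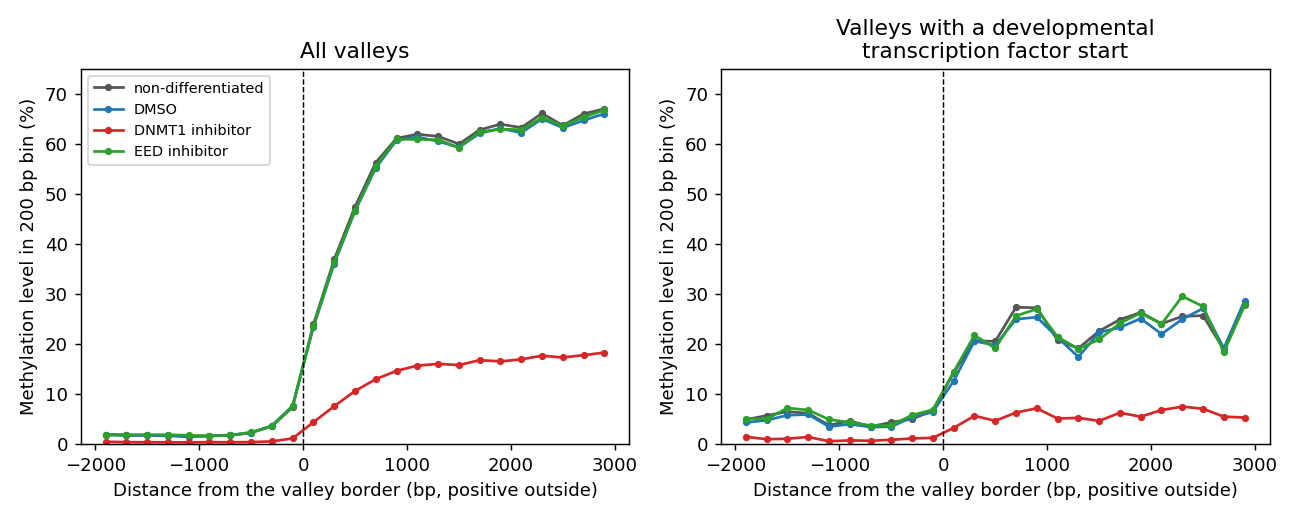
Pooled methylation level in 200 bp bins from 2 kb inside to 3 kb outside the valley borders (dashed line), for each library, over all valleys (left) and the 33 valleys with a developmental transcription factor start (right). On the left the curves other than that of the DNMT1 inhibitor climb together to above 60% beyond 1 kb in most bins, while on the right they stay under 30%.

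Developmental transcription factor valleys had lower edges than the median of all valleys. In that profile the level of these 33 valleys in DMSO was 12.6% in the first 200 bp outside and 28.7% at 2800 to 3000 bp. Their pooled edges stood at 22.2% in non-differentiated cells, 21.0% in DMSO, 5.35% under the DNMT1 inhibitor and 21.8% under the EED inhibitor. In DMSO the median edge was 17.6%, against 56.4% for all valleys, with a range from 8.49% at PAX6, a regulator of eye development, to 79.0% at SIX5. Blood transcription factor valleys had a median edge of 62.0%, those of histone genes 62.7%, those of ribosomal protein genes 69.6% and those of ubiquitous genes 72.5%. Signalling gene valleys were lower, at 39.2%, as were the 140 valleys at or above 4% before differentiation without a developmental transcription factor start, at 34.9%. Low edges were thus not limited to developmental genes. Low edges can also include CpG-rich or CpG-poor windows under 10% that had too few listed CpGs to extend a run. Of 2572 distinct edge windows, 14 belonged to another valley. Edge levels include these, while the edge windows tested below leave them out.

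The DMSO library was close to the non-differentiated one inside the valleys. Against the non-differentiated library, which chose the valleys, the DMSO library was higher in 351 valleys and lower in 296, with a median difference of 0.046 points. Across all 2350609 windows with at least 3 CpGs, Fisher's exact tests with Benjamini-Hochberg adjustment called 0.00506% higher and 0.0204% lower in DMSO. A call needed 5 points or more of difference and an adjusted p below 0.01. None of the 2190 valley windows was called. Their lowest adjusted p by Fisher's exact test was 0.0119, and 192 (8.77%) had an unadjusted p under 0.05. That share was 8.43% in windows outside valleys and edges. The non-differentiated values chose the valley windows, and one under 5% there cannot fall by 5 points. These counts inside are therefore a description. Of 2465 edge windows, 1 was called higher and 6 lower. A minimum of 20 reads per CpG redrew the valleys, leaving 129, and 1 edge window of those was called. With read numbers divided by the CpGs in the window, the 7 calls became 0. This strict setting leaves each window about its mean coverage per CpG and so can call large differences only. At the edges the DMSO level was the lower in 424 of 647 valleys, with a median difference of -0.984 points. This is close to the median of -1.004 points over all windows with at least 10 listed CpGs. All these tests compare 1 library with another and not the conditions.

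The DNMT1 inhibitor library was lower than DMSO inside 628 valleys, higher in 18 and equal in 1, with a median difference of -1.82 points. At the edges it was lower in 646 valleys, with a median of -43.4 points. Genome-wide, 96.2% of windows were called lower and 0% higher. Of valley windows 337 (15.4%) were called lower, and of edge windows 2285 (92.7%). With read numbers divided in that way, 1 valley window and 1591 edge windows were called. A minimum of 20 reads per CpG left 129 redrawn valleys, for which the numbers were 58 and 418. These are not parts of the 337 and 2285. A valley window under 5% in DMSO cannot fall by the required 5 points, so the count inside is limited by the level. Relative to DMSO, 19.5% of the level remained inside the valleys, 24.7% at the edges and 27.9% over all autosomal CpGs listed in every library. Within valleys the remaining share was 17.8% in the outermost windows and 24.1% in the inner ones. Unconverted cytosines would add to every level, and the conversion rate was not measured here. Its part in shares made from levels as low as 0.412% (inner windows) and 0.560% (outermost), and in their difference, was not tested.

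Valleys differed in how much methylation remained with the DNMT1 inhibitor. Among the 238 valleys at 3% or more in DMSO, the remaining share had a median of 17.2% and ran from 2.09% to 50.8%. The largest share was at CADM1, which encodes a cell adhesion molecule (chr11:115502001-115505000). It stood at 7.08% in non-differentiated cells, 5.53% in DMSO, 2.81% under the DNMT1 inhibitor and 8.49% under the EED inhibitor. SNAP25, a gene of synaptic vesicle fusion, GFRA1, a receptor subunit for the growth factor GDNF, CYP26A1, an enzyme that degrades retinoic acid, and a valley 2302 bp from the start of BARHL2 followed, with 41.4% to 46.5%. At the other end was ANKRD11, a chromatin regulator, with 1.84%, 3.27%, 0.0683% and 1.00% in the same order of libraries. SLC1A5, a glutamine transporter gene, MAP2K3, a kinase gene of the p38 pathway, a valley 35134 bp from the nearest start, that of NANOS3, and DUSP6, a phosphatase gene of ERK signalling, kept 2.44% to 3.72%. The edges of these 10 valleys were at 1.81% to 18.4% with the DNMT1 inhibitor. These valleys were picked for their extreme shares, so the shares are descriptions, with the same limit of conversion.

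The EED inhibitor library did not stand apart from DMSO over the valleys as a whole. It was higher inside 325 valleys and lower inside 322, with a median difference of 0.004 points and an SD over valleys of 0.917 points. Read counts alone would give a spread of 0.518 points if every CpG call were independent. Neighbouring CpGs share reads, so the true counting spread can be larger. The DMSO minus non-differentiated difference had an SD of 0.772 points. At the edges it was higher in 324 and lower in 323 valleys, with a median difference of 0.007 points, where all windows with at least 10 listed CpGs had a median of -0.346 points. At single CpGs the difference was less even. Of all valley CpGs, 344 (0.532%) were at 20% or more with the EED inhibitor and under 5% in DMSO, while 141 (0.218%) had the reverse. For DMSO against the non-differentiated library these numbers were 84 and 142. The 2 comparisons share the DMSO library, so a low or high value there moves both. Such CpGs were not counted outside the valleys, and neighbouring CpGs share reads. Whether the imbalance is particular to valleys was therefore not tested.

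The EED inhibitor difference was also taken by level before differentiation, with the groups set by the values that chose the valleys. In valleys with 4% or more before differentiation that held no developmental transcription factor start, the EED inhibitor level was the higher in 92 of 140, with a median difference of 0.524 points. In the 26 such valleys that held one, it was the higher in 22, with a median of 0.839 points. The DMSO minus non-differentiated medians of these groups were -0.283 and -0.463 points, but the non-differentiated values chose the groups, so nothing is read from these. Over all 33 developmental valleys the EED inhibitor library was higher in 26 and lower in 7, by a median of 0.579 points, while DMSO was lower than the non-differentiated library in 23. Whether developmental valleys differ from other valleys of like level was not tested, since a condition has 1 library. The 140 also include valleys with a developmental transcription factor nearest, such as that near BARHL2.

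**Figure D4:**
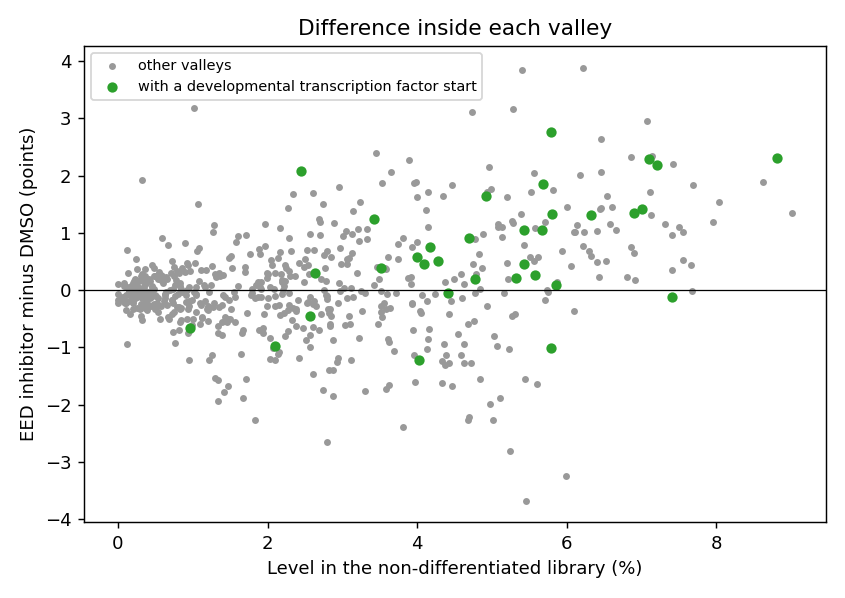
Difference of the EED inhibitor from DMSO inside each valley, in percentage points, against its level in the non-differentiated library, with developmental transcription factor valleys marked. Differences spread to both sides of 0, from -3.68 to 3.89 points, and 26 of the 33 marked valleys lie above 0.

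Among developmental valleys, VAX2, a homeobox gene of the eye and forebrain (chr2:70898001-70901000), stood at 5.78% in non-differentiated cells, 4.90% in DMSO, 0.51% under the DNMT1 inhibitor and 7.65% under the EED inhibitor. PAX6 (chr11:31809001-31813000) stood at 7.09%, 5.43%, 1.43% and 7.71% in that order. OTX2, a forebrain homeobox gene (chr14:56810001-56813000), stood at 7.20%, 6.92%, 1.30% and 9.11%. In all 3 the EED inhibitor library was the highest of the 4. DMSO was the highest at HOXD13, a limb patterning gene (chr2:176092001-176095000), with 4.02%, 5.72%, 1.55% and 4.49%. These 4 were named after their values were seen, from the ends of the list, so nothing is read from the order of libraries in them. POU3F2, named by rule for this list with FOXB2 and HAND1, stood at 4.00%, 3.01%, 0.553% and 3.59%. There the non-differentiated library was the highest.

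The largest EED inhibitor minus DMSO difference of any valley was at BMP6, a growth factor gene whose product raises hepcidin (chr6:7726001-7729000). Its level was 6.22% (5.34 to 7.23) in non-differentiated cells, 5.88% (5.03 to 6.86) in DMSO, 1.46% (1.08 to 1.98) under the DNMT1 inhibitor and 9.76% (8.80 to 10.8) under the EED inhibitor. A valley 903 bp from the start of HOXC12 (chr12:53951001-53954000) stood at 5.40%, 4.04%, 1.04% and 7.89% in that order, and MEF2C, a muscle and blood transcription factor gene (chr5:88882001-88885000), at 4.73%, 2.82%, 0.838% and 5.93%. The other two of the 5 highest had no protein-coding start close by. One (chr2:8535001-8538000) lay 144056 bp from the nearest, that of ID2, and one (chr11:43579001-43582000), at a non-coding gene's start, lay 98738 bp from that of HSD17B12. In each of these 5 the EED inhibitor library was above the non-differentiated one. They were picked for a high EED inhibitor level, and the rule keeps the non-differentiated level low, so nothing is read from this. The lowest difference was at RPP25, a subunit gene of RNase P (chr15:74956001-74959000), with 5.46%, 10.7%, 2.08% and 7.01%. ADM, the adrenomedullin gene, TLCD4, the pair BBIP1 and SHOC2, and the valley nearest NANOS3 followed. In all 5 DMSO was the highest of the 4 libraries. They were picked for a high DMSO level against the EED inhibitor, so nothing is read from that order.

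Tests by window called few differences with the EED inhibitor. Of all windows tested, 0.0747% were called higher and 0.181% lower than DMSO. Of valley windows, 12 (0.548%) were called higher and 5 (0.228%) lower. A valley window under 5% in DMSO cannot fall by 5 points, so most could only be called higher. The balance inside is therefore not compared with that of all windows. Of edge windows, 17 (0.690%) were called higher and 12 (0.487%) lower. With a minimum of 20 reads per CpG, which left 129 redrawn valleys, 1 valley window (lower) and 3 edge windows (2 higher, 1 lower) were called. With read numbers divided by the CpGs in the window none was. Differences of the size that the EED inhibitor gave inside valleys cannot pass at the depth that this leaves, so it says nothing about the valley calls. Whether the larger differences called at the edges could pass was not tested. Across the 12 windows called higher, the median level was 4.25% in non-differentiated cells, 2.099% in DMSO, 0.906% under the DNMT1 inhibitor and 9.58% under the EED inhibitor. DMSO was below the non-differentiated library in 11 of them. Across the 5 called lower, the medians were 7.37%, 10.8%, 0.914% and 3.54%, and DMSO was above the non-differentiated library in all 5. The EED inhibitor library was above the non-differentiated one in all 12 and below it in all 5. These windows were picked by the EED inhibitor and DMSO levels, and the rule keeps the non-differentiated level under 10%. Nothing is therefore read from the side on which the non-differentiated library lies.

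The windows called higher included those in the valleys of RCC1, GFRA1, RASGRP2, MEF2C, BMP6, MDGA1 and UNCX, and in valleys nearest EMX2, HSD17B12, HOXC12 and GATA2. These and the windows below were named because they were called. At UNCX, a homeobox gene of the spine, the window stood at 6.77% in non-differentiated cells, 2.45% in DMSO, 0.296% under the DNMT1 inhibitor and 10.6% under the EED inhibitor. At RASGRP2, a gene of platelet signalling, the window stood at 1.82%, 1.75%, 1.23% and 15.6% in that order. In the valley nearest GATA2, a factor of blood stem and progenitor cells, the window stood at 0.754%, 0.551%, 1.11% and 5.76%. These windows span 10 to 59 CpGs. At MDGA1 the window stood at 5.998%, 1.70%, 0.129% and 7.84%, but its first 12 CpGs, which span 55 bp and can share reads, held 42 of its 76 methylated reads with the EED inhibitor, at 11 to 18 reads per CpG.

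Windows called lower lay at PTCH1, the Hedgehog receptor gene, at UBAP2, NDFIP1 and ANK1 and at the shared promoter of NOA1 and POLR2B. The PTCH1 window stood at 7.37% in non-differentiated cells, 14.8% in DMSO, 0.914% under the DNMT1 inhibitor and 5.67% under the EED inhibitor. The UBAP2 window stood at 5.79%, 12.3%, 2.39% and 2.52% in that order. Both had their highest value in DMSO, but they were picked for a high level there against the EED inhibitor. Signalling gene valleys as a list gave no common direction, with 3 of 5 higher and 2 lower with the EED inhibitor.

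Few valley edges stood out. Among edges with at least 20 listed CpGs, that of JUN, a gene of the AP-1 factor (chr1:58782001-58786000), had the largest EED inhibitor minus DMSO difference, at 41.2% in non-differentiated cells, 45.5% in DMSO, 8.18% under the DNMT1 inhibitor and 56.4% under the EED inhibitor. One window of it stood at 10.1%, 10.7%, 1.01% and 25.7%. Edges of STT3B, ZNF608, RASGRP2 and a valley 1464 bp from the start of FZD10 came next. HNRNPH1, a splicing factor gene (chr5:179620001-179624000), had the lowest, at 53.6%, 55.5%, 11.1% and 43.8%. ITGB1, UBE2M, EED and the histone genes H2BC13, H2AC13 and H3C10 followed. Edges of EED itself stood at 60.4%, 65.9%, 15.1% and 57.2%, and the inside of its valley at 2.30%, 1.78%, 0.341% and 2.03%. A developmental transcription factor was held by or nearest to the valley of 8 of the 17 edge windows called higher and of none of the 12 called lower, against 11.9% of all edge windows. For valley windows the counts were 3 of 12 called higher and 0 of 5 called lower, against 13.4% of all valley windows. In DMSO the median edge of the 33 valleys holding such a start was 17.6%, against 56.4% for all valleys. Edges of those 33 had 3215 listed CpGs, and edges of all 647 had 39723. The part of level and CpG number in these small counts was not tested.

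Long valleys held genes of several kinds. FOXB2 had the longest, 10 kb (chr9:77012001-77022000), at 7.01% in non-differentiated cells, 7.04% in DMSO, 2.29% under the DNMT1 inhibitor and 8.46% under the EED inhibitor. The nuclear receptor gene NR4A3 (chr9:99819001-99826000) had a 7 kb valley at 1.80%, 1.58%, 0.244% and 1.60%. The valley of ID2, an inhibitor of helix-loop-helix factors, had 7 kb (chr2:8677001-8684000) at 2.14%, 2.99%, 0.422% and 1.87%. GFI1B, a repressor needed for erythroid and platelet cells (chr9:132978001-132985000), had 7 kb at 0.496%, 0.680%, 0.197% and 0.934%. FOXB2 had the highest level of these in every library.

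Valleys of 6 kb show the range further. The histone genes H3C12, H2AC17 and H2BC17 shared one (chr6:27890001-27896000) at 0.192%, 0.290%, 0.141% and 0.157% in the order of libraries above. HAND1 (chr5:154476001-154482000) stood at 5.67%, 4.96%, 1.06% and 6.01%, with edges of 15.7%, 14.6%, 2.70% and 16.2%. CCND1, the cyclin D1 gene (chr11:69637001-69643000), stood at 0.589%, 0.469%, 0.222% and 0.714%. The 6 kb valleys also included TGIF1, PTMA and one at another start of RUNX1 (chr21:34885001-34891000), which stood at 1.83%, 2.36%, 0.303% and 2.23%.

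**Figure D5:**
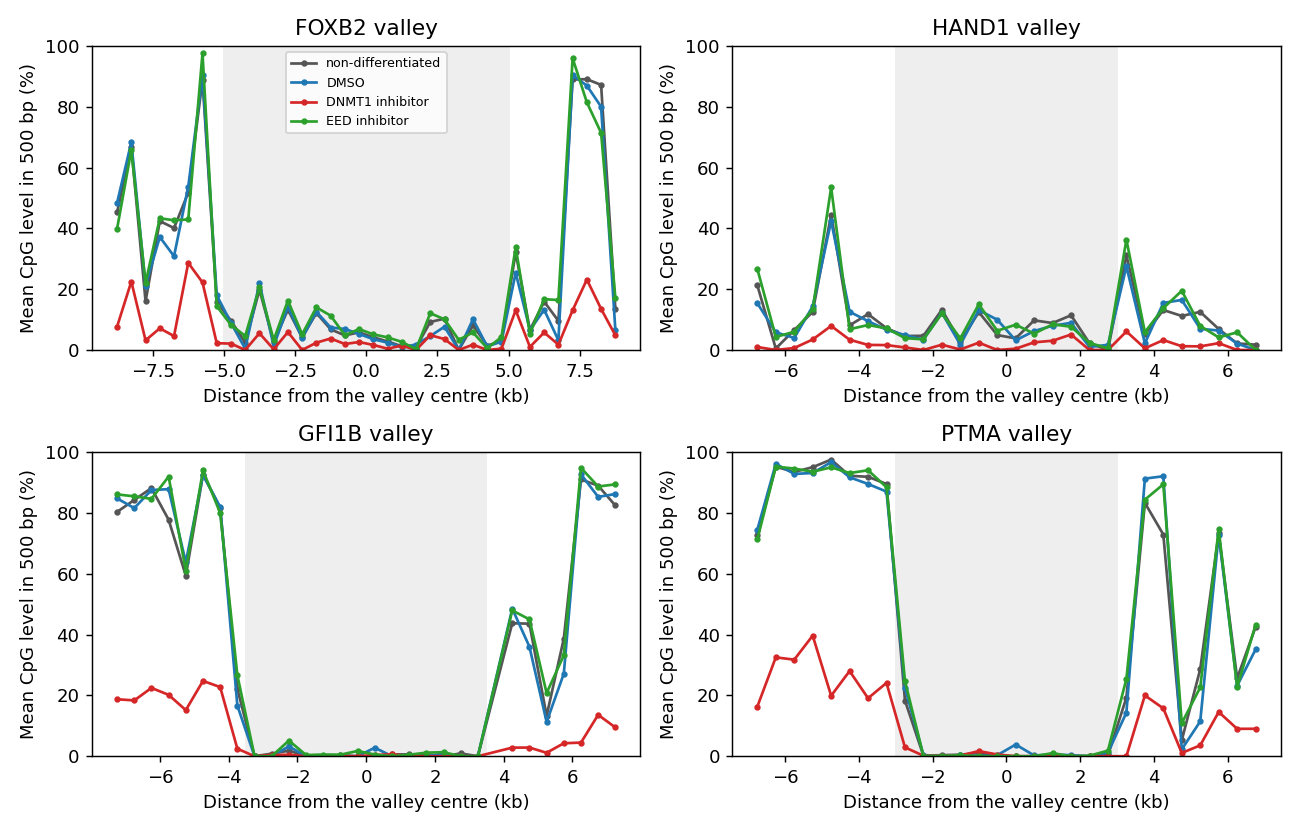
Mean CpG methylation level in 500 bp bins, in percent, against distance from the valley's centre in kb, for each library at FOXB2, HAND1, GFI1B and PTMA; the valley is shaded. GFI1B and PTMA are near 0 inside and rise steeply at the borders, while FOXB2 and HAND1 carry some methylation inside and the surroundings of HAND1 stay mostly low.

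Blood transcription factor valleys were nearly free of methylation. Their median was 1.40% in DMSO, with a range of 0.201% to 2.98%, and the lowest was MYB, a progenitor factor, at 0.420% in non-differentiated cells, 0.201% in DMSO, 0.207% under the DNMT1 inhibitor and 0.395% under the EED inhibitor. GATA2 (chr3:128489001-128494000) stood at 1.31%, 1.40%, 0.283% and 1.63% in that order, and the valley beside it (chr3:128485001-128488000) at 0.32%, 0.26%, 0.69% and 2.18%. Of the 11, 8 were higher and 3 lower with the EED inhibitor than in DMSO, with a median difference of 0.180 points. Histone gene valleys were lower still, with a DMSO median of 0.324%, and ubiquitous genes had a median of 1.17%. Ribosomal protein gene valleys had a median of 2.03%, close to the 2.20% of all valleys, and developmental ones 4.87%. JARID2, a cofactor of Polycomb repressive complex 2, stood at 0.225%, 0.280%, 0.113% and 0.275%.

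Around the threshold, the valleys nearest to 10% as a whole were one 4957 bp from the start of FOXD2, at 9.01% in non-differentiated cells, EBF2 at 8.81% and PDE10A at 8.63%. The nearest single windows were at 9.98% to 9.99% inside and at 10.0% outside. The windows outside stood at 9.55% to 14.0% in DMSO, and those inside at 7.63% to 10.8%.

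Shorter runs of 1 or 2 windows were close to the valleys in level. Their pooled level was 3.25% in non-differentiated cells, 3.35% in DMSO, 0.641% under the DNMT1 inhibitor and 3.44% under the EED inhibitor. Their edges were at 56.6%, 55.5%, 14.1% and 55.4%. The valleys were lower than these in every library, inside and at the edges, but both were chosen by the same threshold and no test was made. Valley CpGs also had less coverage than the average, at 22.97 to 26.1 reads against 28.3 to 31.1 over all autosomal CpGs listed in every library, and the part of depth in these levels was not tested.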

How the data were processed

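Whole-genome bisulfite libraries of 4 HUDEP-2 samples were used. Trim Galore 0.6.7, cutadapt 4.1, Bismark, Bowtie2 2.1.0, methylKit and hg38 are named in the submitters' processing notes. The tables deposited by the authors give, per the file headers, each CpG's coverage (a read count) and the percent of its reads showing C or T. Both strands were merged and at least 10 reads required. Methylated reads were recovered as percent times coverage. CpGs under the minimum, frequent in GC-rich sequence, were absent, and repeats and lambda DNA were not analysed here. CpGs listed in all 4 tables (22761441 on autosomes) were used. A level is methylated reads over all reads. Gene starts came from GENCODE 44 (MANE Select, otherwise canonical). Windows of 1 kb with at least 3 CpGs were tested with Fisher's exact test, two-sided, with Benjamini-Hochberg adjustment over all windows (python 3.11.15, numpy 2.4.6, scipy 1.17.1, pandas 2.3.3), after the code was tested on simulated data. Named were the 10 longest valleys, the 5 highest and 5 lowest by EED inhibitor minus DMSO inside and at the edges (at least 20 edge CpGs) and by the share remaining with the DNMT1 inhibitor, up to 3 genes per list, and the 3 valleys and windows nearest the threshold. Other genes, such as VAX2, PAX6, OTX2 and HOXD13, were named after their values were seen. Members and lists were chosen with earlier results of these data known. Alternatives changed the level, the CpG and read minimums, the choosing library, the grid, the weighting, chromosome regions and the call. Some items are not reported here.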

Additional observations from a re-analysis of the deposited data

How the results depend on the processing

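No paired analysis was possible because each group has 1 library. The number of valleys fell from 647 to 351 with a threshold of 5% and to 129 with 20 reads per CpG. It was 924 with 5 CpGs per window, 661 with valleys chosen in the EED inhibitor library and 660 with the grid shifted by 500 bp. DMSO minus non-differentiated inside the valleys was -0.014 points, and 0.104 at 5%, 0.064 with 5 CpGs, -0.131 when chosen in the EED inhibitor library and -0.083 on the shifted grid, so its sign is not settled. EED inhibitor minus DMSO inside was 0.073 points, and -0.035 at 5%, -0.021 with 20 reads, 0.122 on the shifted grid and 0.166 when CpGs weighed equally, so this sign is not settled either. DNMT1 inhibitor minus DMSO inside was -2.05 points, and -0.772, -2.09, -1.71 and -1.89 at 5%, with 5 CpGs, with 20 reads and unweighted. At the edges DMSO minus non-differentiated was -0.885 points, and -1.40, -1.45 and -0.606 at 5%, with 20 reads and unweighted. DNMT1 inhibitor minus DMSO there was -39.0 points, and -42.5, -39.4, -42.0, -38.2 and -37.5 at 5%, with 5 CpGs, with 20 reads, on the shifted grid and unweighted. EED inhibitor minus DMSO there was 0.027 points, and -0.110 at 5% and 0.395 unweighted. Calls with reads divided by CpGs and with 10 points were 0 and 4 of 7 edge windows for DMSO minus non-differentiated. They were 1 and 33 of 337 valley windows for the DNMT1 inhibitor. For the EED inhibitor they were 0 and 2 of 17 valley and 0 and 17 of 29 edge windows. With 20 reads the windows were those of the 129 redrawn valleys, so their calls are not parts of these counts. There, 1 edge window was called for DMSO minus non-differentiated. For the DNMT1 inhibitor 58 valley and 418 edge windows were called, and for the EED inhibitor 1 and 3. Fewer CpGs enter with 20 reads, and the cause of the other shifts was not tested. One library per group, the read minimum and reads shared by CpGs limit every value.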

Other observations

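The same rule was applied in each library. It gave 647 runs of at least 3 windows before differentiation, 686 in DMSO and 661 under the EED inhibitor. Of the 647 valleys, 91.0% overlapped a run found in DMSO and 90.7% a run found with the EED inhibitor, while 539 and 549 were identical in borders. As shares of the other lists, 86.0% of the DMSO runs and 88.8% of the EED inhibitor runs overlapped a valley. With the DNMT1 inhibitor the rule gave 8945 runs over 32469 kb, the longest of 26 kb, and 271 valleys had identical borders.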
